A study of Homo sapiens with 9 samples.

Results

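Glycolysis is the chain of enzymes that turns glucose into pyruvate and lactate, and the hypoxia response is the set of genes that cells raise when oxygen is short. The 39 genes described here are a list of gene symbols, drawn up with earlier results of these data known. They comprise 23 genes of glucose uptake, glycolysis, lactate handling and pyruvate entry, and 16 genes of the hypoxia response. Probes named for 37 of them were present, 66 probes in all. SLC16A3, which exports lactate, and CA9, a carbonic anhydrase of the cell surface, had no named probe in the table used and were not analysed here. A gene was tested where a probe was brighter than every external control probe on at least 3 of the 9 arrays, which left 35 members among 13769 genes. PDK1, a kinase that slows pyruvate dehydrogenase, had 1 probe and CA12, another carbonic anhydrase, had 2, and none of these was well above background on enough arrays to be tested.

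Hypoxia-inducible factors are transcription factors whose alpha subunits are hydroxylated in the presence of oxygen, bound by the VHL protein and degraded. When oxygen falls the subunits persist, pair with ARNT and bind DNA at a short core motif near genes for glucose carriers, glycolytic enzymes, blood vessel growth and collagen modification. Growth factor receptors and MYC also act on glycolytic genes, and many lung tumours take up glucose strongly.

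H3122 is an established human lung adenocarcinoma line whose growth is driven by the EML4-ALK fusion (E13;A20), and every sample carries it. Total RNA was measured on Illumina bead arrays in 3 samples each of 3 lines. Parental cells are sensitive to crizotinib, called PF1066 in the labels, and to X-376, both inhibitors of the ALK kinase. PF1066R cells are isogenic and resistant to crizotinib, and X376R cells are isogenic and resistant to X-376. The sources used here do not give the oxygen or glucose of the medium, nor whether inhibitor was present at harvest, nor whether a resistant line is a single clone. The labels do not say that the 3 samples of a line are separate cultures. The p-values therefore rest on the spread among these samples, part or all of which may be technical.

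All values below are log2 signals after background correction and quantile normalization, and changes are differences of log2 means ± standard error from limma with 3 arrays per line. A change was called where the Benjamini-Hochberg adjusted p over all genes was under 0.05. Correlations between arrays were 0.98 to 0.989 within a line and 0.929 to 0.963 between lines. Before normalization the mean signals were 163 to 180 in X376R, 230 to 298 in Parental and 175 to 234 in PF1066R, so X376R and PF1066R overlapped. The X376R and Parental ranges did not overlap, so array brightness and line cannot be fully told apart in that comparison. Of 8 markers of lung adenocarcinoma epithelium, 8 passed the filter. The endothelial markers PECAM1 and CDH5 passed and KDR was not above background on any array, and their summed normalized signal, on a linear scale, was 131 to 137 in Parental, 204 to 273 in PF1066R and 324 to 365 in X376R. CDH5 was near background in Parental and higher in both resistant lines, and PECAM1 was not called. Fibroblast markers summed to 309 to 325, 319 to 330 and 429 to 466 over 4 of 5 markers, with PDGFRB not above background on any array. Leukocyte markers summed to 267 to 339, 316 to 343 and 308 to 351 over 3 passing markers, with CD3E not above background on any array. The part of these markers in the results below was not tested. In RNA from whole cultures, fewer cells that express a gene and less RNA per cell cannot be told apart.

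In X376R cells 6 of 14 tested hypoxia response genes and 4 of 21 tested glycolysis genes were lower than in both other lines, as were 4.64% of all genes. P4HA2, a collagen hydroxylase, was higher than in both, as were 5.36% of all genes. Against Parental, 4 of 35 members rose and 13 fell, while 28.0% of all genes passed, 13.9% as rises and 14.2% as falls. Against PF1066R, 2 members rose and 14 fell, while 16% of all genes passed, 7.92% as rises and 8.08% as falls. PF1066R cells against Parental showed 4 members that rose and 4 that fell, a share of 22.9% beside 18.5% of all genes, of which 9.09% rose and 9.37% fell. The arrays of the compared lines did not overlap for 14 members in PF1066R against Parental, 21 in X376R against Parental and 18 in X376R against PF1066R, where 33.7%, 38.8% and 29.1% of all genes did not. Comparisons of either resistant line with Parental share the Parental arrays, and the values for each are set side by side.

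The hypoxia response and the glycolysis genes are given apart. Of the 14 hypoxia response genes tested, 7 fell and 1 rose against Parental, with a median change of -0.35, while the median of all genes was -0.01. Of the 21 tested glycolysis genes, 6 fell and 3 rose, with a median of -0.02. Against PF1066R the hypoxia response genes gave 8 lower, 1 higher and a median of -0.43, and the glycolysis genes gave 6 lower, 1 higher and a median of -0.18. In PF1066R against Parental the medians were 0 for hypoxia response and 0.17 for glycolysis. Replacing quantile normalization by centring on the median of each array moved the median of all genes to -0.12, -0.19 and -0.06 in PF1066R against Parental, X376R against Parental and X376R against PF1066R. Under it 0 members rose and 6 fell, 2 rose and 21 fell, and 1 rose and 10 fell, in the same order. Falls also outnumbered rises over all 13769 genes then, with 215 higher and 2227 lower, 387 and 4205, and 275 and 703. With that centring the medians in PF1066R against Parental were -0.29 for hypoxia response and -0.14 for glycolysis. With array brightness in the model, the X376R and Parental difference was called for 2 members higher and 5 lower, and the X376R and PF1066R difference for 2 higher and 12 lower. Of the 14 hypoxia response genes, 1 rose and 4 fell in X376R against Parental in that model.

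**Figure D1:**
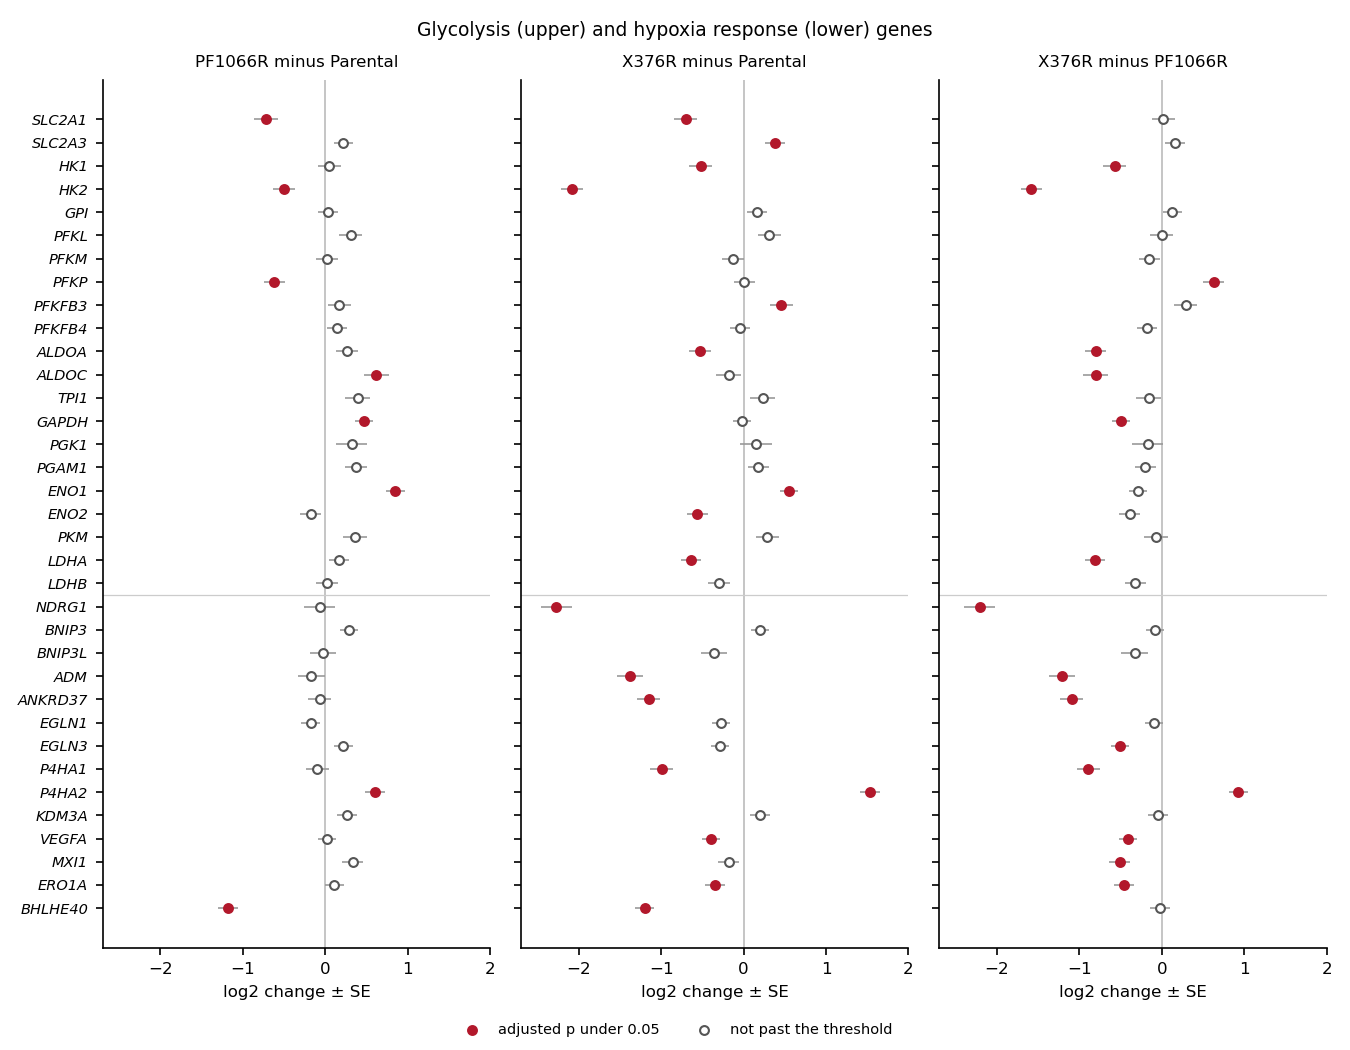
Log2 change ± standard error of the 35 tested members in the 3 comparisons, glycolysis genes above and hypoxia response genes below the grey line, filled red where the adjusted p was under 0.05. NDRG1 at -2.27 and HK2 at -2.08 lie farthest left in X376R against Parental and P4HA2 at 1.53 farthest right, and there PFKP, PFKFB3 and ENO1 turned to -0.57, -0.18 and -0.18 with median centring.

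Some members differed in X376R from both other lines. HK1, HK2, ALDOA, LDHA, NDRG1, ADM, ANKRD37, P4HA1, VEGFA and ERO1A, 10 of 35 members or 28.6%, were lower in X376R than in Parental and than in PF1066R, as were 4.64% of all genes. P4HA2 was the single member higher than in both, 2.86% beside 5.36% of all genes. SLC2A1, HK2 and BHLHE40 fell in both resistant lines against Parental, 8.57% of members beside 6.45% of all genes. ENO1 and P4HA2 rose in both, 5.71% beside 5.48%. Among the 30 members whose probe was above background on all 9 arrays, 11 fell in X376R against Parental, 36.7% beside 19.0% of such genes.

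**Figure D2:**
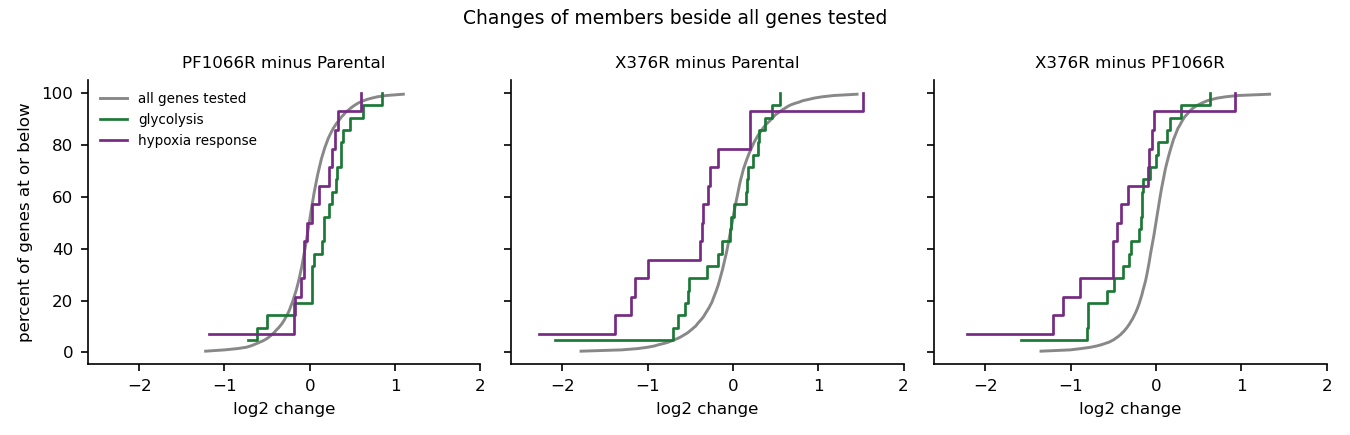
Cumulative share of genes, in percent, at or below each log2 change, for the 21 glycolysis genes, the 14 hypoxia response genes and all 13769 genes in the 3 comparisons. The hypoxia response curve lies left of the curve for all genes over most of its length in both X376R comparisons, with medians of -0.35 and -0.43. In PF1066R against Parental the glycolysis curve lies right of it over most of its length and left of it at the lower end. Its median there was 0.17, which became -0.14 with median centring, beside -0.12 for all genes.

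Of the tested genes of glucose uptake, SLC2A1 was lower in both resistant lines. SLC2A1 encodes the glucose carrier found in most cultured cells. Its log2 signals were 9.92, 9.56 and 9.91 in Parental, 8.87, 9.02 and 9.35 in PF1066R and 8.92, 9.19 and 9.18 in X376R. All 6 resistant arrays lay below all 3 Parental arrays, and the resistant lines overlapped each other. SLC2A1 fell by 0.72 ± 0.14 in PF1066R (adjusted p = 0.00138) and by 0.70 ± 0.14 in X376R (adjusted p = 0.000922). The X376R call was lost with array brightness in the model, where the change was -0.74 (adjusted p = 0.108). SLC2A3, a carrier of high affinity, was above background on 0 Parental, 1 PF1066R and 3 X376R arrays, so it passed the filter through X376R, the line where it is high. Its signal was at least 1.1-fold higher in X376R than in Parental, a description from which no test is read. It is 1 of the 4 members counted as higher in X376R against Parental.

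Hexokinases trap glucose in the cell by phosphorylating it, and both measured forms were lowest in X376R. HK2, the inducible form, read 8.75, 8.28 and 8.30 in Parental, 7.80, 8.03 and 7.99 in PF1066R and 6.34, 6.46 and 6.28 in X376R. The lines were ordered without overlap, with X376R the lowest. Before normalization the X376R signals of HK2 were 94.9, 99.3 and 90.5, little above the brightest external controls at 83, 88.2 and 87.6. HK2 fell by 2.08 ± 0.13 in X376R against Parental (4.23-fold, adjusted p = 2.43e-09) and by 1.58 ± 0.13 against PF1066R (2.99-fold, adjusted p = 1.22e-07). A second HK2 probe fell by 1.05 and by 0.88 in the same comparisons. In PF1066R HK2 fell by 0.50 ± 0.13 (adjusted p = 0.0115), a call that was lost without Parental replicate 1 (-0.35, adjusted p = 0.0728) or without PF1066R replicate 1 (-0.43, adjusted p = 0.0629), and the second probe there gave -0.17. HK1, the form of most tissues, read 9.65, 9.64 and 9.59 in Parental, 9.41, 9.84 and 9.79 in PF1066R and 9.31, 9.18 and 8.84 in X376R. Every X376R array was below every other array. HK1 fell by 0.52 ± 0.14 against Parental (adjusted p = 0.00768), which became -0.73 with an adjusted p of 0.0915 with array brightness in the model, and by 0.57 ± 0.14 against PF1066R (adjusted p = 0.007). A dimmer HK1 probe gave -0.21 and -0.14 and did not pass.

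The next steps rearrange and phosphorylate the sugar again. PFKP, the platelet form of phosphofructokinase, read 8.38, 8.36 and 8.20 in Parental, 7.52, 7.95 and 7.63 in PF1066R and 8.50, 8.42 and 8.07 in X376R. PF1066R was the low line here, and Parental and X376R overlapped. PFKP fell by 0.62 ± 0.13 in PF1066R (adjusted p = 0.00345) and was 0.63 ± 0.13 higher in X376R than in PF1066R (adjusted p = 0.00318), the latter 0.121 with median centring. Against Parental its X376R change was 0.01 ± 0.13, which turned to -0.57 with median centring. The liver and muscle forms PFKL and PFKM and the isomerase GPI passed in no comparison, with changes of -0.15 to 0.31. PFKFB3 makes the fructose bisphosphate that activates phosphofructokinase, and it rose by 0.46 ± 0.14 in X376R against Parental (adjusted p = 0.0204) but turned to -0.18 with median centring. Without Parental replicate 2, Parental replicate 3 or X376R replicate 2 its adjusted p was 0.0612, 0.0543 and 0.0631. A second PFKFB3 probe gave 0.13 ± 0.13, and PFKFB4, a related enzyme, passed in no comparison.

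Aldolases split the sugar into triose phosphates. ALDOA, the main form outside liver and brain, read 11.20, 11.12 and 10.96 in Parental, 11.37, 11.24 and 11.46 in PF1066R and 10.28, 10.83 and 10.57 in X376R. X376R was lowest on every array. ALDOA fell by 0.53 ± 0.13 against Parental (adjusted p = 0.00537), and by 0.80 ± 0.13 against PF1066R (adjusted p = 0.000385). The first call ended with array brightness in the model (-0.64, adjusted p = 0.151) and with the mean of its probes (-0.22, adjusted p = 0.135). A second probe gave -0.16 against Parental, which did not pass, and -0.61 (adjusted p = 0.0107) against PF1066R. Another probe gave 0.05 and 0.13 and passed in neither. That probe, part of the mean above, was near background, above it on 4 of 9 arrays. ALDOC, the form best known from brain, read 7.88, 8.21 and 8.17 in Parental, 8.33, 8.83 and 8.96 in PF1066R and 7.93, 7.79 and 8 in X376R. PF1066R stood above both other lines, which overlapped. ALDOC rose by 0.62 ± 0.15 in PF1066R against Parental (adjusted p = 0.00621) and was 0.80 ± 0.15 lower in X376R than in PF1066R (adjusted p = 0.00094). The rise was not called with median centring (0.24, adjusted p = 0.352).

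Of the 9 genes of the triose phosphate steps, 3 rose in PF1066R against Parental and 0 fell. Over all genes 9.09% rose and 9.37% fell in that comparison. The 3 that rose were ALDOC, GAPDH and ENO1, and with median centring none of them was called. GAPDH, which oxidizes glyceraldehyde phosphate, rose by 0.47 ± 0.11 there (adjusted p = 0.00587) and was 0.49 ± 0.11 lower in X376R than in PF1066R (adjusted p = 0.00475). Its other probes gave 0.19 and 0.30 in PF1066R and did not pass, and gave -0.69 (adjusted p = 0.00839) and -0.50 (adjusted p = 0.0565) between the resistant lines. In X376R against Parental they gave -0.50 (adjusted p = 0.0349) and -0.20 (adjusted p = 0.471), where the brightest gave -0.02. The PF1066R rise was 0.01 with median centring. Its call was also lost with a smaller background offset, with the log2 values of the authors and with array brightness in the model (adjusted p = 0.0506, 0.0591 and 0.106). ENO1, the enolase of most tissues, read 11.69, 11.91 and 11.95 in Parental, 12.74, 12.62 and 12.72 in PF1066R and 12.57, 12.30 and 12.33 in X376R. Both resistant lines were above Parental on all arrays, and PF1066R was the highest. ENO1 rose by 0.85 ± 0.11 in PF1066R (adjusted p = 5.23e-05) and by 0.55 ± 0.11 in X376R (adjusted p = 0.0013). With median centring the first was 0.40 and did not pass, and the second turned to -0.18. ENO2, the neuronal enolase, read 6.94, 6.79 and 6.67 in Parental, 6.52, 6.44 and 6.91 in PF1066R and 6.35, 6.10 and 6.26 in X376R. It was lowest in X376R on every array and fell by 0.56 ± 0.13 against Parental (adjusted p = 0.00317), which became -0.69 with an adjusted p of 0.104 with array brightness in the model. It was above background on 2 of 3 X376R arrays. TPI1, PGK1, PGAM1 and PKM, which carry out the remaining steps to pyruvate, passed in no comparison by their brightest probes, with changes of 0.32 to 0.39 in PF1066R against Parental. A dimmer PKM probe was lower in X376R than in PF1066R (-0.55, adjusted p = 0.0489). Against Parental it gave -0.37 (adjusted p = 0.163) in X376R, where the brightest gave 0.29. A further PKM probe passed in no comparison.

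**Figure D3:**
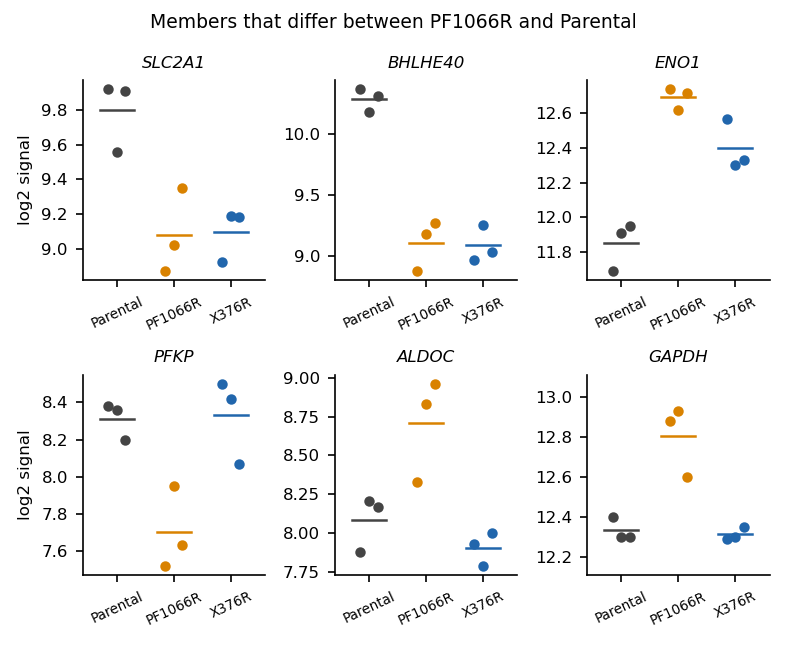
Log2 signal of each array (points) and the mean of each line (bars) for 6 members that differ between PF1066R and Parental. SLC2A1 and BHLHE40 are low in both resistant lines, PFKP is lower and ALDOC and GAPDH are higher in PF1066R than in both other lines, and ENO1 is highest in PF1066R, although its X376R change of 0.55 turned to -0.18 with median centring.

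Lactate dehydrogenases interconvert pyruvate and lactate. LDHA, the form raised by hypoxia, read 11.61, 11.43 and 11.55 in Parental, 11.62, 11.61 and 11.86 in PF1066R and 11.02, 10.70 and 10.95 in X376R. X376R was below both other lines without overlap. LDHA fell by 0.64 ± 0.12 against Parental (adjusted p = 0.000462) and by 0.81 ± 0.12 against PF1066R (adjusted p = 0.000101). A second probe gave -0.27 (adjusted p = 0.162) and -0.63 (adjusted p = 0.00267), and another probe gave -0.08 and -0.20 and passed in neither. The first comparison was not called with array brightness in the model, where the change stayed at -0.64 (adjusted p = 0.0984). LDHB, the form of heart muscle, passed in no comparison, with changes of -0.32 to 0.02. With median centring it was called lower in X376R against Parental (-0.98, adjusted p = 0.00469), where the median of all genes was -0.19. Without X376R replicate 3 it was called lower in X376R than in Parental (-0.42) and than in PF1066R (-0.44).

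**Figure D4:**
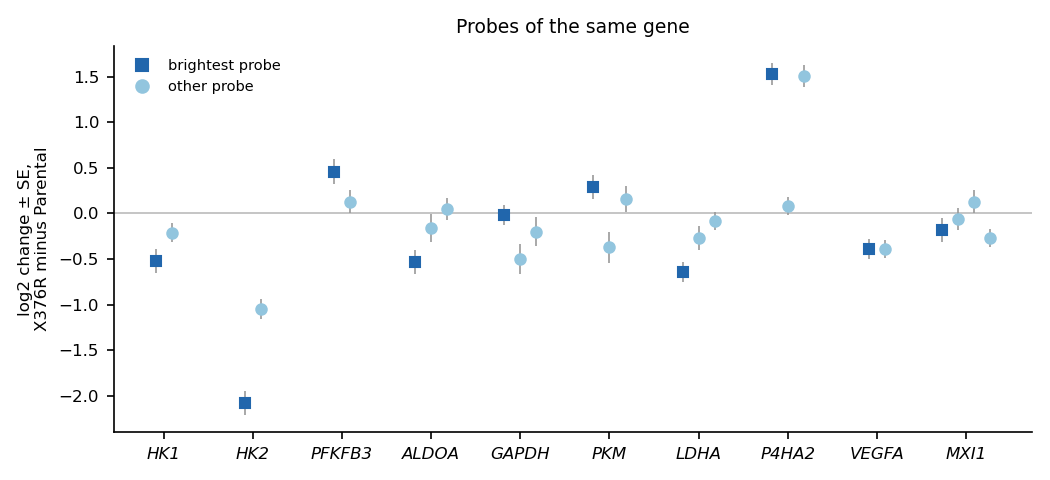
Log2 change ± standard error in X376R against Parental for each passing probe of 10 members, with the brightest probe, which stands for the gene in the test, as a square. The probes of HK2 lie at -2.08 and -1.05 and 2 probes of P4HA2 at 1.53 and 1.51, and PFKFB3 at 0.46 turned to -0.18 with median centring. Those of ALDOA, LDHA and GAPDH spread by more than their errors, where the dimmest probes of ALDOA and LDHA were near background.

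Of the 6 hypoxia response members that were lower in X376R than in both other lines, NDRG1, ADM, ANKRD37 and P4HA1 differed most. NDRG1 is induced by hypoxia and by differentiation. It read 9.87, 9.41 and 9.61 in Parental, 8.96, 9.89 and 9.85 in PF1066R and 7.24, 7.49 and 7.34 in X376R. Parental and PF1066R overlapped, and the X376R arrays lay well below both. NDRG1 fell by 2.27 ± 0.19 against Parental (4.84-fold, adjusted p = 1.2e-07) and by 2.21 ± 0.19 against PF1066R (4.62-fold, adjusted p = 2.76e-07). ADM encodes adrenomedullin, a secreted peptide that widens blood vessels. Its signals were 9.15, 8.89 and 9.13 in Parental, 8.41, 9.20 and 9.06 in PF1066R and 7.69, 7.65 and 7.69 in X376R. X376R was again below both overlapping lines, and PF1066R replicate 1 was the lowest of the other 2 lines for both genes. ADM fell by 1.38 ± 0.16 against Parental (2.6-fold, adjusted p = 4.7e-06) and by 1.21 ± 0.16 against PF1066R (2.32-fold, adjusted p = 3.59e-05).

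ANKRD37, an ankyrin repeat gene known as a direct hypoxia target, read 7.38, 7.47 and 7.17 in Parental, 6.94, 7.44 and 7.43 in PF1066R and 6.36, 6.08 and 6.12 in X376R. X376R lay below the other lines, and 1 of its 3 arrays was above background. ANKRD37 fell by 1.15 ± 0.14 against Parental (2.23-fold, adjusted p = 7.77e-06) and by 1.09 ± 0.14 against PF1066R (2.12-fold, adjusted p = 2.7e-05). VEGFA, the growth factor of blood vessels, fell by 0.39 ± 0.11 against Parental (adjusted p = 0.0137) and by 0.41 ± 0.11 against PF1066R (adjusted p = 0.0175). A second VEGFA probe gave -0.39 and -0.14. It was above background on 3 Parental, 1 PF1066R and 0 X376R arrays, so no test is read from it. The first VEGFA call was lost with array brightness in the model (-0.21, adjusted p = 0.674) and without Parental replicate 1 (adjusted p = 0.0593) or Parental replicate 3 (0.0611). The second was lost with median centring (-0.45, adjusted p = 0.127), with array brightness (-0.34, adjusted p = 0.118) and without PF1066R replicates 1 or 3 or X376R replicates 2 or 3, with adjusted p of 0.0597, 0.07, 0.0583 and 0.0564.

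The prolyl hydroxylases of collagen moved in opposite directions in X376R. P4HA1 and P4HA2 encode alternative catalytic subunits of the enzyme that stabilizes collagen helices. P4HA1 read 7.65, 7.38 and 7.77 in Parental, 7.34, 7.37 and 7.79 in PF1066R and 6.81, 6.41 and 6.61 in X376R. X376R was below both other lines. P4HA1 fell by 0.99 ± 0.14 against Parental (adjusted p = 5.17e-05), which became -0.86 with an adjusted p of 0.0661 with array brightness in the model, and by 0.89 ± 0.14 against PF1066R (adjusted p = 0.000295). P4HA2 read 7.68, 7.60 and 7.51 in Parental, 8.18, 8.12 and 8.29 in PF1066R and 9.33, 9.15 and 8.89 in X376R. The lines were ordered upward without overlap. P4HA2 rose by 0.60 ± 0.12 in PF1066R (adjusted p = 0.00175) and by 1.53 ± 0.12 in X376R (2.89-fold, adjusted p = 4.28e-08), and X376R exceeded PF1066R by 0.93 ± 0.12 (adjusted p = 2.67e-05). A second P4HA2 probe gave 0.60, 1.51 and 0.91, another, dimmer probe gave 0.13, 0.08 and -0.04 and did not pass, and the PF1066R rise was 0.26 and not called with median centring. Of the fibroblast markers, COL1A1, a collagen gene, rose by 0.81 ± 0.12 (adjusted p = 7.12e-05) in X376R against Parental. LUM was 0.51 higher there, with 6.03, 6.12 and 5.91 in Parental, near background, and 6.5, 6.2 and 6.9 in X376R. No test is read from this LUM difference. COL1A2 gave -0.11 (adjusted p = 0.59) and DCN 0.17 (adjusted p = 0.296), and the part of these markers was not tested.

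**Figure D5:**
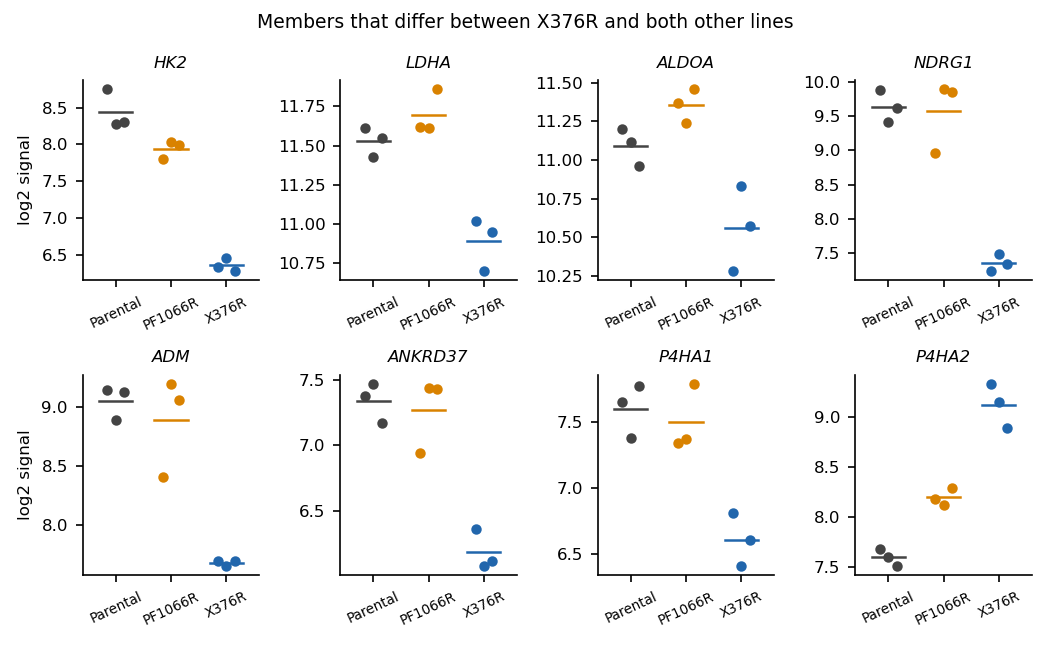
Log2 signal of each array (points) and the mean of each line (bars) for 8 members that differ between X376R and both other lines. The X376R arrays of HK2, LDHA, ALDOA, NDRG1, ADM, ANKRD37 and P4HA1 lie below all other arrays, and those of P4HA2, at 8.89 to 9.33, lie above them.

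BHLHE40, a transcriptional repressor induced by hypoxia and growth signals, was low in both resistant lines. It read 10.37, 10.18 and 10.31 in Parental, 8.88, 9.18 and 9.27 in PF1066R and 8.97, 9.26 and 9.04 in X376R. The resistant lines overlapped and lay below every Parental array. BHLHE40 fell by 1.18 ± 0.12 in PF1066R (2.26-fold, adjusted p = 3.56e-06) and by 1.2 ± 0.12 in X376R (2.29-fold, adjusted p = 1.23e-06), and the resistant lines differed by -0.02 ± 0.12. ERO1A, which drives disulfide formation in the endoplasmic reticulum, fell by 0.35 ± 0.12 in X376R against Parental (adjusted p = 0.0467), and by 0.46 ± 0.12 against PF1066R (adjusted p = 0.018). The first call was lost in 11 of 20 alternative settings, among them the fits without Parental replicates 1 or 3, any PF1066R replicate or X376R replicates 1 or 3 (-0.40 to -0.21). The second was lost with median centring (-0.62, adjusted p = 0.082), with array brightness (-0.41, adjusted p = 0.0986) and without PF1066R replicates 1 or 2 or X376R replicate 3, these last with adjusted p of 0.0514, 0.0551 and 0.0809.

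Among the oxygen sensors and the mitophagy genes, EGLN3 alone was counted as called, in the comparison of the resistant lines. EGLN3, a prolyl hydroxylase that marks hypoxia-inducible factors, read 6.23, 6.07 and 6.38 in Parental, 6.41, 6.40 and 6.53 in PF1066R and 6.02, 5.80 and 5.98 in X376R. It was above background on 2, 3 and 0 arrays of these lines, and X376R lay below the others. It passed the filter through the lines where it is higher. EGLN3 was at least 1.23-fold lower in X376R than in PF1066R, a description from which no test is read. It is 1 of the members counted as lower in that comparison, a count it left with median centring. MXI1, which opposes MYC, read 6.12, 6.42 and 6.32 in Parental, 6.48, 6.59 and 6.80 in PF1066R and 6.34, 5.97 and 6.02 in X376R. It was 0.51 ± 0.13 lower in X376R than in PF1066R (adjusted p = 0.0105), where those lines did not overlap, and it was above background on 1 of 3 X376R arrays. Of its other probes 1 gave -0.38, but it was above background on 3 PF1066R and 0 X376R arrays, so no test is read from it. The other 2 gave 0.05 and 0.13 and did not pass. The call ended with median centring (adjusted p = 0.0666), with the mean of its probes (-0.18, adjusted p = 0.204) and without PF1066R replicate 3 (adjusted p = 0.0631). EGLN1, the main oxygen sensor, BNIP3 and BNIP3L, which mark mitochondria for removal, and KDM3A, a histone demethylase, passed in no comparison, with changes of -0.36 to 0.29. In all, 13 of 35 members, 37.1%, passed in none, beside 63.4% of all genes.

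Promoters from the RefSeq table of GRCh38.p14 are shown for 5 of the 6 members that changed at least 2-fold, since these genes carry the main differences. No window is printed for NDRG1, whose chromosome was left out of the printed windows. Each window runs from 250 bases before to 50 bases after a transcription start, 5′ to 3′ on the strand of the gene. Capitals mark the core motif bound by hypoxia-inducible factors, ACGTG or GCGTG, searched on both strands, where CACGTG gives overlapping matches on both.
HK2 upstream window, chr2:74833877-74834176, + strand: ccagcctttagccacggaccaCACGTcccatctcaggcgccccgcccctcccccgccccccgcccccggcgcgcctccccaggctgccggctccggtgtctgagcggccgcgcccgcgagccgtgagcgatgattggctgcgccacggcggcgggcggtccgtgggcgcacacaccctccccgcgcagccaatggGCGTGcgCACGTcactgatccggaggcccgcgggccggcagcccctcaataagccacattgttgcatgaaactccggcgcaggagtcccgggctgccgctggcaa
HK2 downstream window, chr2:74834920-74835219, + strand: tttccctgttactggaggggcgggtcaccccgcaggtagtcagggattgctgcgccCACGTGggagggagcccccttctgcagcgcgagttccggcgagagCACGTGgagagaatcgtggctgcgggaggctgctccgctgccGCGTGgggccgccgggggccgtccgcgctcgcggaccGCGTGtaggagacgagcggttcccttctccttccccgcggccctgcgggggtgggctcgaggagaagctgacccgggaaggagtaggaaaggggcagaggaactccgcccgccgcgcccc
ADM, chr11:10304823-10305122, + strand: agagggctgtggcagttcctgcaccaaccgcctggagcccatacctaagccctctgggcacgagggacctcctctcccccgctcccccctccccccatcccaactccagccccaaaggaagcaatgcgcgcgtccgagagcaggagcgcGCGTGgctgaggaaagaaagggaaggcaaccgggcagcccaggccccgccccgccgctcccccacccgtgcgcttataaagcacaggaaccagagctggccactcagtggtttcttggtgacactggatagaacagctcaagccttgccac
ANKRD37, chr4:185396591-185396890, + strand: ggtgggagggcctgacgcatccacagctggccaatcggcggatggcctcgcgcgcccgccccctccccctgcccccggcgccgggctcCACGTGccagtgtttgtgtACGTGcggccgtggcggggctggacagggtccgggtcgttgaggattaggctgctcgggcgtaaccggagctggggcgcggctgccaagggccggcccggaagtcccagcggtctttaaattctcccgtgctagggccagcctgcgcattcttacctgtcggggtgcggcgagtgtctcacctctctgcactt
P4HA2, chr5:132227042-132227341, - strand: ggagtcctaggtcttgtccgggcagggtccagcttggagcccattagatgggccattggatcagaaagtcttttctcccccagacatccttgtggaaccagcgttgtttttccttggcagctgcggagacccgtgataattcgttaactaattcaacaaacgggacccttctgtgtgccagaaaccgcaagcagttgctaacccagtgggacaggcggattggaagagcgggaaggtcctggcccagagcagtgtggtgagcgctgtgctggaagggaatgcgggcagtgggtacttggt
BHLHE40, chr3:4979187-4979486, + strand: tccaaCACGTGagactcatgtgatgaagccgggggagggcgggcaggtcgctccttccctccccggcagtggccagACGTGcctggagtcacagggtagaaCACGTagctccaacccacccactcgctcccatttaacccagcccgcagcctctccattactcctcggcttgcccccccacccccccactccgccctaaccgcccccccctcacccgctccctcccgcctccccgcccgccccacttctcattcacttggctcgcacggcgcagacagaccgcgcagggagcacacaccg

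The HK2 windows held 3 and 6 matches, the ADM window 1, the ANKRD37 window 3, the BHLHE40 window 4 and the P4HA2 window 0. Many promoters hold the motif by letters alone, 17012 of 35116 windows or 48.4%, and 58.1% of the windows of tested genes. Member windows held it in 44 of 64 cases, 68.8%. Windows of the members lower in X376R than in both other lines held it in 13 of 18 cases, 72.2%, and those of members that passed in no comparison in 13 of 20, 65%. A match describes the letters and is not a site of binding, and 0 matches says only that these letters are not in this window.

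Genes that control the hypoxia response were read from a list of 20, of which 19 were tested. In PF1066R against Parental 2 rose and 3 fell, in X376R against Parental 4 rose and 3 fell, and in X376R against PF1066R 2 rose and 0 fell, where 18.5%, 28.0% and 16% of all genes passed. In X376R against Parental the counts became 0 and 6 with median centring and 1 and 0 with array brightness in the model. HIF1A, the main oxygen-regulated subunit, gave 0.15 ± 0.12, 0.04 ± 0.12 and -0.11 ± 0.12 in these comparisons and did not pass. EPAS1, a related subunit, fell by 0.48 ± 0.11 in X376R against Parental (adjusted p = 0.00429), which became 0.247 with array brightness in the model. ARNT, the partner subunit, rose by 0.51 ± 0.14 in PF1066R (adjusted p = 0.0154), and VHL fell by 0.38 ± 0.12 there (adjusted p = 0.0346), where ARNT was not called with median centring (adjusted p = 0.085). MYC fell by 0.95 ± 0.14 in PF1066R (adjusted p = 0.000159) and by 0.65 ± 0.14 in X376R (adjusted p = 0.00229), the latter 0.0764 with array brightness in the model. TXNIP, which limits glucose uptake, was 0.62 ± 0.18 higher in X376R than in PF1066R (adjusted p = 0.0258), a call that ended with median centring (adjusted p = 0.639). These are RNA levels and say nothing of the amount of the proteins, several of which are set by degradation.

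Hypoxia targets outside the 39 members were read from a list of 44, of which 37 were tested. In PF1066R 1 rose and 6 fell, in X376R against Parental 3 rose and 10 fell, and against PF1066R 5 rose and 8 fell, beside the same shares of all genes. In X376R against Parental the counts became 1 and 18 with median centring and 1 and 3 with array brightness in the model. Against PF1066R they became 1 and 3 with median centring, 5 and 4 with cyclic loess and 5 and 3 with array brightness. DDIT4, an inhibitor of the growth kinase mTOR, fell by 1.08 ± 0.20 in PF1066R (adjusted p = 0.00097) and fell by 2.43 ± 0.20 in X376R (5.4-fold, adjusted p = 8.23e-08), and X376R was 1.35 ± 0.20 below PF1066R (adjusted p = 0.000124). EDN1, the vessel-narrowing peptide endothelin, went the other way and rose by 1.44 ± 0.12 in X376R against Parental (2.71-fold, adjusted p = 8.14e-08). Of the endothelial markers, CDH5 was 2.21 ± 0.13 higher there, but its Parental values of 5.82, 5.9 and 6.01 were near background. PECAM1 gave -0.06 and was not called. VWF did not pass the filter and KDR was not above background on any array. The part of these markers was not tested. ZNF395, a zinc finger gene, fell by 0.87 ± 0.12 in X376R (adjusted p = 4.17e-05), and ANGPTL4, a secreted inhibitor of lipoprotein lipase, fell by 0.57 ± 0.11 in PF1066R (adjusted p = 0.00104).

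Further genes of sugar metabolism changed in both directions. Of 26 further glycolysis genes 16 were tested, and in PF1066R 2 rose and 0 fell, in X376R against Parental 4 rose and 2 fell, and against PF1066R 1 rose and 2 fell, where again 18.5%, 28.0% and 16% of all genes passed. In X376R against Parental the counts became 1 and 5 with median centring and 1 and 1 with array brightness. FBP1, which runs the phosphofructokinase step backwards in glucose synthesis, rose by 1.37 ± 0.12 in PF1066R (2.59-fold, adjusted p = 6.73e-07) and by 1.44 ± 0.12 in X376R (2.71-fold, adjusted p = 1.48e-07). SLC2A10, a glucose carrier, fell by 0.61 ± 0.11 in X376R (adjusted p = 0.000393). Of 10 tested pentose phosphate genes, 1 rose and 1 fell in each resistant line against Parental, and 2 rose and 2 fell in X376R against PF1066R. With median centring these became 0 and 3 in PF1066R, 0 and 6 in X376R and 0 and 1 between the resistant lines, and with array brightness 0 and 1, 0 and 0, and 0 and 0.

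Pyruvate entry into mitochondria and the citric acid cycle were covered by 30 genes, 26 of them tested. In PF1066R 7 rose and 1 fell, in X376R against Parental 8 rose and 5 fell, and in X376R against PF1066R 0 rose and 5 fell, beside 18.5%, 28.0% and 16% of all genes that passed. With median centring these counts became 0 and 4, 1 and 13, and 0 and 4, and with array brightness in the model 5 and 0, 4 and 0, and 0 and 4. MPC2, a subunit of the mitochondrial pyruvate carrier, rose by 0.77 ± 0.12 in PF1066R (adjusted p = 0.000235) and by 1.04 ± 0.12 in X376R (adjusted p = 4.89e-06), where it was 0.51 and still called with median centring. MPC1, its partner, rose by 0.89 ± 0.14 in PF1066R (adjusted p = 0.000198) and was 0.68 ± 0.14 lower in X376R than in PF1066R (adjusted p = 0.00186). PDHA1 and PDHB encode paired subunits of pyruvate dehydrogenase. PDHA1 rose by 0.78 and 0.77 in PF1066R and X376R while PDHB fell by 0.64 and 0.69 (adjusted p = 0.000439, 0.00027, 0.00149 and 0.000416). With median centring the PDHA1 rises were not called, and with array brightness in the model the PDHB falls were not.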

How the data were processed

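The authors deposited linear intensity values for 47323 probes on each array, taken here as they stand. A second deposited table holds log2 values normalized by the authors, with R 2.15 listed in the submitters' processing notes. Its columns equal quantile-mapped signals within 0.001 for 100% of probes on replicates 2 and 3 of each line, and for 1.15% to 1.2% on replicate 1, so it served only as an alternative. How beads were summarized into probes was not stated.

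Signals were background-corrected with normexp (offset 50), quantile-normalized and log2-transformed with limma 3.58.1 in R 4.3.3. No detection p-values were used. A probe passed where it exceeded the brightest of 92 external control probes on at least 3 arrays, and these controls were recognized by their block of identifiers, without a gene name. Passing probes numbered 26814, of which 18575 had 1 gene symbol, and the brightest stood for its gene. The fit used lmFit and eBayes over all 9 arrays with 1 mean per line. Spread came from 6 residual and 10.7 prior degrees of freedom, and the median standard error was 0.118. The number of arrays limits the precision. The fit was tested on simulated data.

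The members and lists were chosen with earlier results of these data known. All members are accounted for, with array values for those called with a change of at least 0.5, and up to 4 called genes of each list per comparison were eligible to be named, with HIF1A, EPAS1, ARNT, VHL, MYC and TXNIP always given. Where a line had no array above background, a fold is a bound against the dimmest passing signal of each array. Alternatives covered scaling, background, filter, probe choice, source table, replicate block, array brightness, samples in the fit and leaving out each array. Values for the lists under other scalings were added to the planned ones after the data were seen. Motifs were searched in RefSeq promoter windows of GRCh38.p14. Replicate numbers were not taken as pairs.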

Additional observations from a re-analysis of the deposited data

Results flagged for a closer look

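For 16 members the changes from Parental differed between the resistant lines, as tested by the direct difference of X376R minus PF1066R in limma with an adjusted p under 0.05. The differences on the log2 scale were -0.57 for HK1, -1.58 for HK2, 0.63 for PFKP, -0.80 for ALDOA, -0.80 for ALDOC, -0.49 for GAPDH and -0.81 for LDHA among the glycolysis genes. Among the hypoxia response genes they were -2.21 for NDRG1, -1.21 for ADM, -1.09 for ANKRD37, -0.51 for EGLN3, -0.89 for P4HA1, 0.93 for P4HA2, -0.41 for VEGFA, -0.51 for MXI1 and -0.46 for ERO1A. In 14 of the 16 X376R was the lower line. PFKP, EGLN3, VEGFA, MXI1 and ERO1A lost the call in at least 1 alternative. EGLN3 was not above background on any X376R array, so its difference is a description and is not read as a test. Groups of 3 arrays are too small for a check of single outlying samples.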

How the results depend on the processing

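Calls of SLC2A1, PFKP and BHLHE40 in PF1066R against Parental, of HK2, NDRG1, ADM, ANKRD37, P4HA2 and BHLHE40 in X376R against Parental, and of 11 of 16 members in X376R against PF1066R kept their direction and stayed past the threshold in every alternative run. With each array centred on its median, PFKP, PFKFB3 and ENO1 in X376R against Parental turned to -0.57 (adjusted p = 0.0146), -0.18 (adjusted p = 0.519) and -0.18 (adjusted p = 0.551). Relative to the shifted median of all genes they were -0.38, 0.01 and 0.01. The cause was not tested. That centring left 978 genes called between the resistant lines against 2204, and the share of calls that were higher became 8.8%, 8.43% and 28.1% in PF1066R against Parental, X376R against Parental and X376R against PF1066R, from 49.2%, 49.5% and 49.5%. With array brightness in the model, the comparisons with Parental called 1140 genes in place of 2541 and 1148 in place of 3860. In X376R against Parental 7 members were called in place of 17. That model has fewer degrees of freedom, and brightness and line overlap in it. Leaving out each array gave 7 to 10, 13 to 18 and 14 to 17 members, and 1865 to 2777, 3101 to 3845 and 1606 to 2192 genes, in the same order. Of 945 such member values, 25 lost and 18 gained a call and 0 reversed. Deviations of same-numbered arrays from their line means correlated by -0.05 to 0 for replicate 1, 0.14 to 0.22 for replicate 2 and 0.03 to 0.15 for replicate 3. Not every pair was over 0.1, and the labels name nothing that a number shares, so the numbers were not used as pairs. A fit with a replicate block called 11, 19 and 17 members and 2879, 4173 and 2469 genes. Signals near background limit SLC2A3, EGLN3, ENO2, ANKRD37 and MXI1, and HK2 in X376R, and PDK1 and CA12 could not be read.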
